A study of Mus musculus with 12 samples.

Results

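The insulin-like growth factor (IGF) binding proteins Igfbp2, Igfbp3, Igfbp4, Igfbp5, Igfbp6 and Igfbp7, the ligand Igf1 and its receptor Igf1r were followed in mouse embryonic fibroblasts. Control lines were compared with lines in which 3 of the 4 alleles of the coactivators CBP (gene Crebbp) and p300 (gene Ep300) lack the CH1 domain. The members were all probe sets that the array annotation gives to these 8 gene symbols, which came to 24 of 45037 probe sets. Of these, 18 had a mean signal of at least 100 over the 12 arrays and were tested, out of 18903 tested in all. The other 6 were low: all 4 probe sets of Igf1, 1 of Igfbp5 and 1 of Igfbp7.

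RNA came from 6 lines of primary fibroblasts made from e14.5 embryos, each line split between 21% O2 (normoxia) and 0.1% O2 (hypoxia) for 6 h. All lines, the controls included, carried a floxed allele and had received Cre adenovirus at passage 3, and were then expanded 100 fold or more before use. The 3 control lines carried 1 floxed allele: of Crebbp in line flox1, and of Ep300 in lines flox2_1 and flox2_2. The 3 triCH1 lines lacked CH1 in 3 of the 4 alleles of the pair of genes, and the remaining allele was the floxed one: Crebbp in line triCH1flox1, Ep300 in lines triCH1flox2_1 and triCH1flox2_2. A floxed allele is the one that Cre acts on, in control and triCH1 lines alike. How much of it was left in these cells was not measured here. This gave 4 groups of 3 arrays. The labels do not say whether the lines of a type came from separate litters, so the p-values measure the spread between these lines.

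IGF1 and IGF2 are secreted growth factors that signal through the receptor tyrosine kinase encoded by Igf1r. Most of the IGF in extracellular fluid is held by binding proteins, which limit its access to the receptor or release it when proteases cut them. Igfbp2, Igfbp3, Igfbp4, Igfbp5 and Igfbp6 encode high-affinity binders, Igfbp6 with a preference for IGF2, whereas Igfbp7 encodes a secreted relative that binds IGFs weakly. Fibroblasts are a common source of these proteins. CH1 is the domain of CBP and p300 to which the hypoxia-inducible factor HIF-1 binds, and hypoxia is known in other cells to raise some members of the family, Igfbp3 among them.

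Markers of fibroblasts and of other cell types, and the hypoxic treatment, were read from genes outside the family. All 9 fibroblast markers examined had a mean signal of at least 100 (lowest Pdgfra, at 218) and 0 of 5 endothelial markers did. Of 5 macrophage markers, 3 (Csf1r, Cd68 and Lyz2, at 194, 113 and 105) passed 100, and the defining markers Ptprc and Adgre1 did not. Also above 100 were 2 of 5 epithelial markers (Epcam 142, Krt18 214), 2 of 4 adipocyte markers (Fabp4 1136, Pparg 213) and 2 of 4 neural markers (Nes 1066, Tubb3 173). The muscle, cartilage and bone markers are given below. Bnip3, a HIF target, was 4.46 higher in hypoxia in control lines and 4.39 higher in triCH1 lines on the log2 scale. The probe sets for Crebbp and Ep300 do not show whether CH1 is present, and their lowest adjusted p over the 7 limma comparisons was 0.975 and 0.776. By Xist and Eif2s3y, 1 of the 3 control lines (flox2_1) and 2 of the 3 triCH1 lines (triCH1flox1 and triCH1flox2_2) were female. Median signal per array lay between 57.2 and 76.1, and array pairs correlated at 0.936 to 0.962.

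Before the values, the promoters of the pair of members that separated the line types most, Igfbp7 and Igfbp6, are shown. They are RefSeq windows of 300 bases in build GRCm38.p6, from 250 bases before to 50 after the start of the gene, at chr5:77407996-77408295 on the minus strand for Igfbp7 and chr15:102143936-102144235 on the plus strand for Igfbp6. Capitals mark every match, on either strand, to ACGTG or GCGTG (the core that HIF recognises) or to TATAAA (the TATA box).
Igfbp7: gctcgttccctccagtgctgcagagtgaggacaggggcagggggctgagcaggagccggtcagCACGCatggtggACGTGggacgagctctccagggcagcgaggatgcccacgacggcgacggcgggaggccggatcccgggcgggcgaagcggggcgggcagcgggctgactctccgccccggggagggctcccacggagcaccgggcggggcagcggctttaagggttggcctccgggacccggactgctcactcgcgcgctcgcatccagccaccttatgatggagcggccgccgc
Igfbp6: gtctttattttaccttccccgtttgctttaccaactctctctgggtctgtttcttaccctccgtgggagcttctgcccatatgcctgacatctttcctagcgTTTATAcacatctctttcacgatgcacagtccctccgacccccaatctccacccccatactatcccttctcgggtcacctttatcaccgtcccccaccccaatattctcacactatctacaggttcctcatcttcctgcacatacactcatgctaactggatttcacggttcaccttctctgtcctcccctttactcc
In the Igfbp7 window the capitals CACGC are GCGTG read on the other strand, at position -187 from the start, and ACGTG follows at position -175. The Igfbp6 window holds neither core; its capitals are TATAAA on the other strand, at position -148. The windows also differ in base composition, with 73.3% G and C for Igfbp7 and 49.7% for Igfbp6, against a median of 52.7% over 32851 windows. The 8 genes had 9 windows. ACGTG occurred in 2 of the 9 and in 19.6% of all windows, GCGTG in 6 of the 9 and in 32.4%, and TATAAA in 2 of the 9 and in 13.6%. The palindrome CACGTG, which contains ACGTG, was found in 1 of the 9 (an Igfbp2 window) and in 7.15% of all. Neither TGACGTCA nor TGACG, which it contains, occurred in any of the 9, against 1.79% and 20.8% of all windows. Igfbp2 and Igfbp5 start near each other on chromosome 1, with windows at chr1:72825137-72825436 on the plus strand and chr1:72874816-72875115 on the minus strand. A match is a string of letters, not a shown binding site.

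The first question was whether 6 h of hypoxia changed the family. It did not change any member past the threshold: 0 of the 18 tested probe sets passed an adjusted p of 0.05 in limma, in control lines, in triCH1 lines or in the mean over both, and 0 of 18 had an unadjusted p under 0.05 in any of these. Over all tested probe sets, 0.831% were called in control lines, 0.635% in triCH1 lines and 1.75% in the mean over both, and 5.98%, 6.25% and 11.3% had an unadjusted p under 0.05. The mean response over both line types ran from -0.24 to 0.36 on the log2(signal + 20) scale among the 18 probe sets, with adjusted p from 0.694 to 0.999. The widest reach of their 95% intervals was -0.95 to 0.99, so that in this fit a mean response outside 0.517-fold to 1.99-fold lay beyond the interval of every tested probe set. This fit does not pair the 2 arrays of a line, so its errors and intervals include the spread between lines. With the line as a fixed block, 0 of 18 were called too. Over all 18903 probe sets that fit called 264 in control lines, 189 in triCH1 lines and 693 in the mean. The intervals within one line type were wider, from -1.48 to 1.18 in control lines and from -1.47 to 1.45 in triCH1 lines. The median size of a line's response was 0.24 for the members and 0.25 over all tested probe sets.

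**Figure D1:**
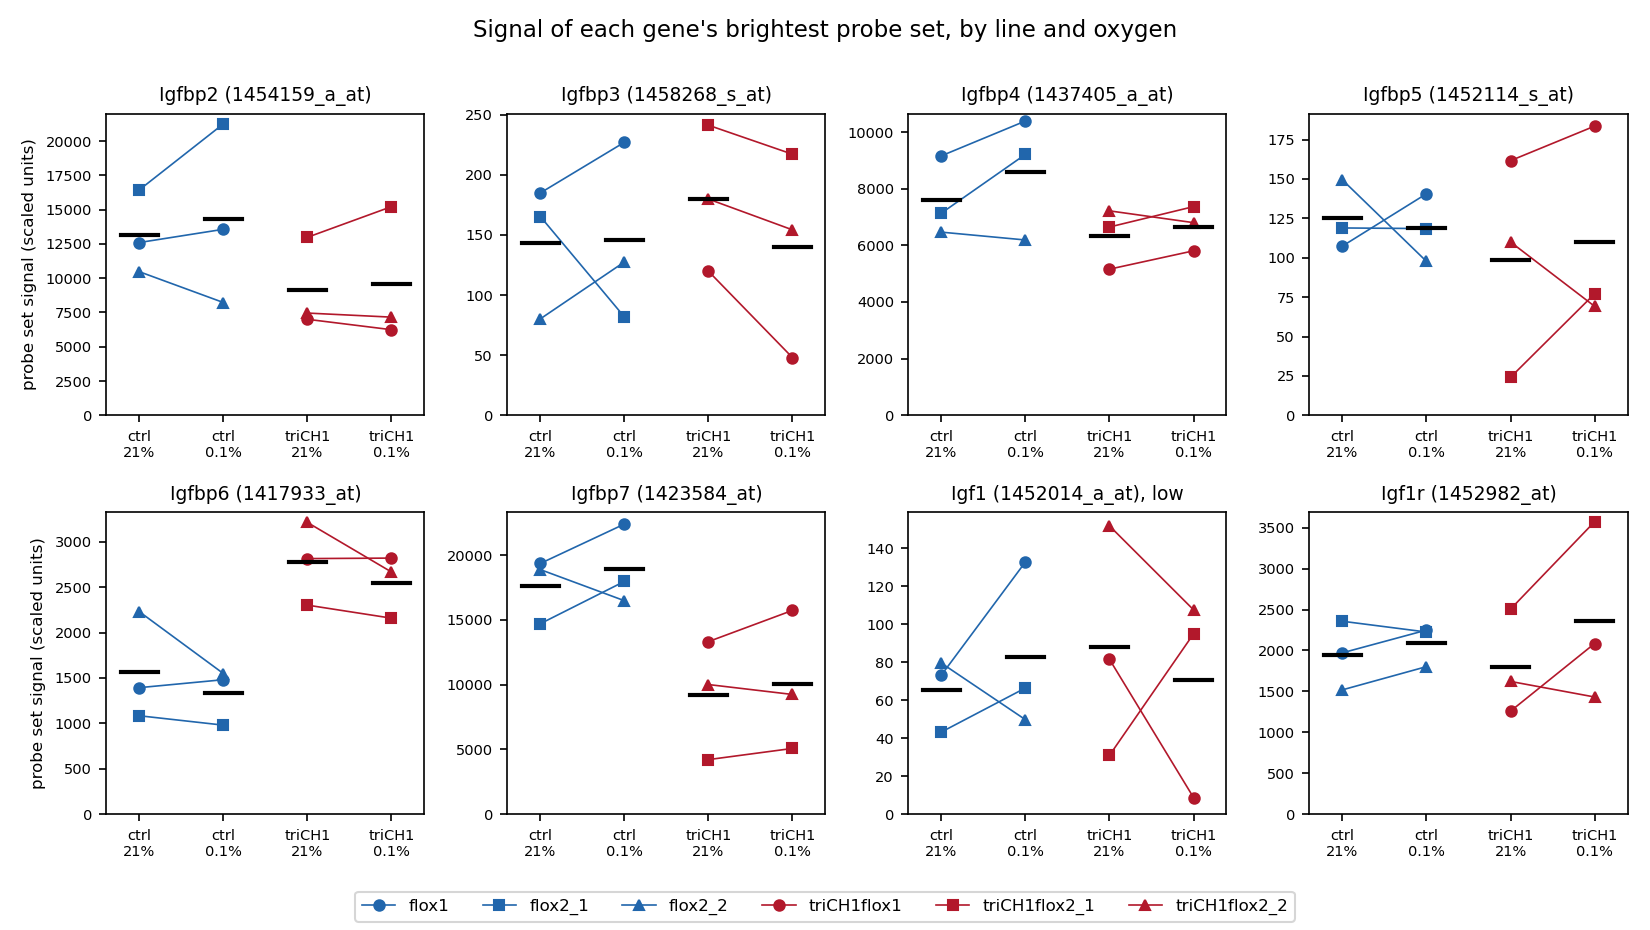
Probe set signal (scaled units, linear axis from 0) of the brightest probe set of each of the 8 genes in all 12 arrays; points are single arrays, a line joins the normoxic and hypoxic array of a cell line, and the black bar is the mean of the 3 arrays of a group. Igfbp6 sits higher and Igfbp7 lower in the triCH1 arrays (red) than in the control arrays (blue) at each oxygen level, whereas the lines joining a cell line's arrays slope both ways in all 8 panels.

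Igfbp2, whose product binds both IGFs and is abundant in fetal tissue, was read by 1 bright probe set, 1454159_a_at. Its signal in normoxia was 16438, 12598 and 10472 in control lines flox2_1, flox1 and flox2_2 and 12979, 7001 and 7456 in triCH1flox2_1, triCH1flox1 and triCH1flox2_2. In hypoxia the same lines gave 21249, 13564 and 8225 (control) and 15214, 6243 and 7159 (triCH1). It rose in 3 lines and fell in 3, and the order of the 6 lines was the same at both oxygen levels, with flox2_1 highest and triCH1flox1 lowest. The mean hypoxia response was 0.02 ± 0.26 (SE; adjusted p = 0.988, limma). The direction of so small a value turned when single lines or arrays were left out.

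Igfbp3 encodes the main carrier of IGFs in the circulation, and in these cells it lay close to the filter. Probe set 1458268_s_at read 165, 185 and 80.2 in the normoxic control lines (flox2_1, flox1, flox2_2) and 81.8, 227 and 128 in hypoxia. The triCH1 lines (triCH1flox2_1, triCH1flox1, triCH1flox2_2) read 241, 120 and 180 in normoxia and 217, 48.0 and 154 in hypoxia. All 3 triCH1 lines were lower in hypoxia, flox2_1 fell and the other two control lines rose, and the oxygen groups overlapped. The mean response was -0.24 ± 0.33 (adjusted p = 0.870, limma), and it became 0.03 without the hypoxic array of triCH1flox1. The second probe set, 1423062_at, ranged from 48.4 to 249 and correlated with the first at r = 0.745 over the 12 arrays. Its responses by line had another pattern. It rose in triCH1flox2_1 (0.46) and triCH1flox1 (0.62) and fell in triCH1flox2_2 (-0.68) and in flox2_1, flox1 and flox2_2 (-0.71, -0.04 and -0.29).

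Igfbp4, a binder that holds IGFs away from the receptor until the protease PAPP-A cuts it, was read by 6 probe sets, all tested. They tracked each other closely, with pairwise r of 0.833 to 0.996 over the 12 arrays; probe sets of 3 pairs share a source accession, so they are not independent readings. The brightest, 1437405_a_at, read 7137, 9159 and 6465 in normoxic control lines (flox2_1, flox1, flox2_2) and 9211, 10388 and 6189 in hypoxia. Its triCH1 values (triCH1flox2_1, triCH1flox1, triCH1flox2_2) were 6647, 5159 and 7217 in normoxia and 7366, 5806 and 6801 in hypoxia. The signal was higher in hypoxia in 4 lines and lower in flox2_2 and triCH1flox2_2. The mean response was 0.12 ± 0.14 (adjusted p = 0.836, limma), the narrowest error among the members.

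Igfbp5, which binds IGFs and the extracellular matrix, was near the limit of the assay. Its tested probe set 1452114_s_at had a mean of 113, just inside the filter, and its other probe set, 1422313_a_at, a mean of 94.2, just outside. In control lines (flox2_1, flox1, flox2_2) the tested probe set read 119, 107 and 149 in normoxia and 119, 141 and 97.7 in hypoxia. In triCH1 lines (triCH1flox2_1, triCH1flox1, triCH1flox2_2) it read 24.1, 162 and 110 in normoxia and 77.1, 184 and 69.2 in hypoxia. The groups overlapped, with the triCH1 lines spread more widely than the control lines. The mean response was 0.09 ± 0.33 (adjusted p = 0.958, limma) and its direction turned without line triCH1flox2_1 or flox1, or without single arrays of triCH1flox2_1 or triCH1flox1.

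Igf1 was low in every probe set, so neither a response nor a difference between line types was tested for it. Its brightest, 1452014_a_at, read 43.2, 73.2 and 79.5 in normoxic control lines (flox2_1, flox1, flox2_2) and 66.4, 133 and 49.7 in hypoxia. The triCH1 lines (triCH1flox2_1, triCH1flox1, triCH1flox2_2) gave 30.9, 81.5 and 152 in normoxia and 94.9, 8.70 and 108 in hypoxia. It passed 100 in 3 arrays, the hypoxic array of flox1 and both arrays of triCH1flox2_2. The other 3 probe sets had means of 51.7 to 69.2, and triCH1flox2_2 had the highest line mean in all 4.

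Igf1r was bright, and its 5 tested probe sets did not move together. Probe set 1452982_at read 2357, 1971 and 1519 in normoxic control lines (flox2_1, flox1, flox2_2) and 2226, 2249 and 1802 in hypoxia. The triCH1 lines (triCH1flox2_1, triCH1flox1, triCH1flox2_2) gave 2505, 1258 and 1621 in normoxia and 3574, 2084 and 1431 in hypoxia. It was higher in hypoxia in 4 lines and lower in flox2_1 and triCH1flox2_2, and the mean response was 0.23 ± 0.22 (adjusted p = 0.773, limma). Over the 12 arrays the pairwise r of its probe sets ran from -0.42 to 0.776. The lowest involved 1446303_at, whose mean of 101 was the closest of all members to the filter. Of the 2 pairs that share an accession, 1428967_at and 1452982_at gave r = 0.776, and 1426565_at and 1452108_at gave 0.306. The mean responses of the 5 probe sets lay between -0.11 and 0.36.

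Igfbp6 and Igfbp7 showed as little response to oxygen as the others, -0.16 ± 0.18 (adjusted p = 0.829) for Igfbp6 and 0.12 ± 0.28 (adjusted p = 0.936) for the brighter Igfbp7 probe set, 1423584_at. The dimmer Igfbp7 probe set, 1423585_at, gave 0.34 ± 0.25 (adjusted p = 0.694, limma). In control lines it was the only one of the 18 whose hypoxic and normoxic arrays did not overlap, where 11.6% of all tested probe sets did not; in triCH1 lines 0 of 18 separated, against 11.9%. The brighter probe set of the same gene did overlap there, and rose in 4 lines of 6.

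**Figure D2:**
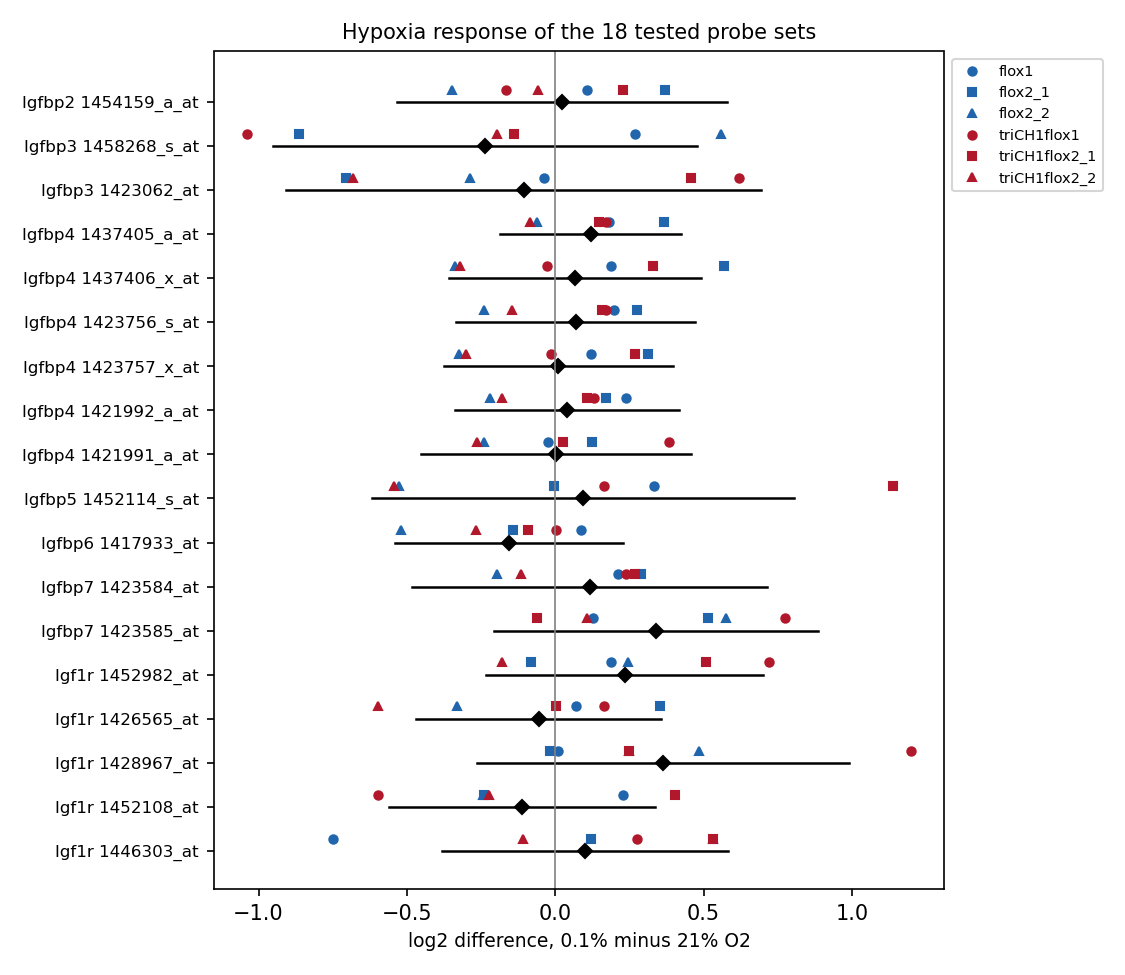
Hypoxia response of the 18 tested probe sets as a log2 difference (0.1% minus 21% O2, log2(signal + 20)); diamonds and bars are the limma mean over both line types with its 95% interval, and the small points above are the responses of the 6 lines. All 18 bars cross 0, with diamonds between -0.24 and 0.36. The fit does not pair a line's arrays, so the bars include the spread between lines.

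Whether the response differed between the line types was the next comparison. It gave 0 of 18 members called in limma and 0 of 18 with an unadjusted p under 0.05, against 0% called and 0.693% under that p over all probe sets. The differences (triCH1 minus control) lay between -0.45 and 0.48 with intervals reaching from -1.88 to 2.08. A difference outside those bounds lay beyond the interval of every tested member.

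The line types themselves differed most in Igfbp6 and Igfbp7, in opposite directions and in both oxygen levels, although neither passed the adjusted threshold in the fit used throughout. The mean over triCH1 lines was 1.83 times the control mean for Igfbp6, and 0.524 times and 0.423 times the control mean for the bright and the dim probe set of Igfbp7. In each of the 3 comparisons of line types (in normoxia, in hypoxia, and on the means of each line's arrays), 0 of 18 members were called in limma, where 0.00529%, 0.0741% (0.0688% lower in triCH1) and 0% of all probe sets were. An unadjusted p under 0.05 was reached by 3 of the 18 in each, Igfbp6 and both Igfbp7 probe sets, against 7.56%, 7.97% and 9.83% of all. The same 3 did not overlap between line types, both in normoxia (background 10.8%) and in hypoxia (13.2%). When all 6 arrays of each line type were set against each other, 0 of 18 stayed apart, against 1.69%.

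Igfbp6 encodes the binder that prefers IGF2. Probe set 1417933_at read 1083, 1393 and 2231 in normoxic control lines (flox2_1, flox1, flox2_2) and 980, 1481 and 1549 in hypoxia. In triCH1 lines (triCH1flox2_1, triCH1flox1, triCH1flox2_2) it read 2303, 2816 and 3215 in normoxia and 2159, 2822 and 2669 in hypoxia. The lowest triCH1 line thus lay above the highest control line at each oxygen level, closely so in normoxia, where flox2_2 reached 2231. Line means were 1453 ± 429 in control and 2664 ± 380 in triCH1 lines (SD, n = 3 each). The log2 difference was 0.87 ± 0.25 in normoxia (SE; adjusted p = 0.377), 0.94 ± 0.25 in hypoxia (adjusted p = 0.301) and 0.90 ± 0.21 on line means (adjusted p = 0.252, limma; 95% interval 0.42 to 1.39). With all 12 arrays in 1 fit and the line as a random block, the same difference had an adjusted p of 0.0464, 1 of 127 probe sets called in that fit against 0 on line means; over all the alternatives run for it, the adjusted p lay between 0.0464 and 0.816.

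Igfbp7 encodes a matrix-associated secreted protein that is plentiful in fibroblasts and smooth muscle. Its bright probe set 1423584_at read 14703, 19357 and 18883 in normoxic control lines (flox2_1, flox1, flox2_2) and 17969, 22399 and 16480 in hypoxia. The triCH1 lines (triCH1flox2_1, triCH1flox1, triCH1flox2_2) gave 4203, 13319 and 10002 in normoxia and 5067, 15731 and 9236 in hypoxia. All triCH1 arrays but 1 were below every control array; the exception was the hypoxic array of triCH1flox1, at 15731. Line means were 18299 ± 2333 in control and 9593 ± 4945 in triCH1 lines (SD, n = 3 each), and the spread was wider among the triCH1 lines, with an SD of log2 line means of 0.83 against 0.18. The log2 difference was -1.09 ± 0.39 in normoxia (adjusted p = 0.514), -1.06 ± 0.39 in hypoxia (adjusted p = 0.514) and -1.07 ± 0.34 on line means (adjusted p = 0.392, limma; interval -1.85 to -0.29).

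The dimmer Igfbp7 probe set followed the bright one (r = 0.924 over 12 arrays). Probe set 1423585_at read 389, 502 and 343 in normoxic control lines (flox2_1, flox1, flox2_2) and 564, 550 and 520 in hypoxia. The triCH1 lines (triCH1flox2_1, triCH1flox1, triCH1flox2_2) gave 117, 235 and 161 in normoxia and 111, 415 and 175 in hypoxia. Its line means were 478 ± 47.1 and 202 ± 110 (SD, n = 3 each), with the triCH1 lines again lower and more spread. The log2 difference was -1.21 ± 0.36 in normoxia (adjusted p = 0.377), -1.34 ± 0.36 in hypoxia (adjusted p = 0.301) and -1.27 ± 0.30 on line means (adjusted p = 0.255, limma). The third probe set, 1437804_at, had a mean of 12.1 and carried no usable signal.

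Whether Igfbp7 was called depended on 1 line and on the model. Without triCH1flox1, whose values were the closest to the controls, the log2 difference of probe set 1423585_at was -1.44 in normoxia (adjusted p = 0.0191), -1.82 in hypoxia (0.00691) and -1.63 on line means (0.0117). The bright probe set was then -1.46 in hypoxia (adjusted p = 0.0454) and -1.44 on line means (0.0319). Leaving out the hypoxic array of triCH1flox1 alone gave -1.82 in hypoxia for 1423585_at (0.0371). With all arrays of the lines used, the same probe set passed in hypoxia with only the floxed Ep300 lines (-1.81, adjusted p = 0.0383) and with the floxed gene as a covariate (-1.34, 0.0440), and on line means with the random line block (-1.27, 0.0474). These settings also called more probe sets overall: 245, 276 and 499 of 18903 without triCH1flox1 (normoxia, hypoxia and line means), 43 and 129 in hypoxia with the Ep300 lines alone and with the covariate, and 127 on line means with the block, against 1, 14 and 0 otherwise. Over all alternatives its adjusted p ran from 0.0191 to 1 in normoxia, 0.00691 to 0.917 in hypoxia and 0.0117 to 0.789 on line means, and that of 1423584_at from 0.0319 to 0.910 on line means and from 0.0454 to 0.9995 in hypoxia.

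The floxed gene was balanced between the line types and sex was not, and the lines were also compared within each sex, where they are too few for a test. Among female lines, mean Igfbp6 signal was 1032 in flox2_1 against 2819 in triCH1flox1 and 2942 in triCH1flox2_2. Among male lines it was 1437 and 1890 in flox1 and flox2_2 against 2231 in triCH1flox2_1. Igfbp6 was higher in every triCH1 line within each sex. Any split of the lines would give this order, since every triCH1 line mean was above every control line mean. For Igfbp7 (1423584_at) the female line means were 16336 in flox2_1 against 14525 and 9619 in triCH1flox1 and triCH1flox2_2, and the male ones 20878 and 17682 in flox1 and flox2_2 against 4635 in triCH1flox2_1. Igfbp7 was lower in every triCH1 line within each sex, least so between flox2_1 and triCH1flox1. This order too was fixed beforehand, since every triCH1 line mean was below every control line mean. The part of sex in these differences was not tested.

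The summed signal of cartilage and bone markers also differed between the line types. Of 5 such markers with a probe set, 3 (Col2a1, Acan and Sox9) had a mean of at least 100, and Ibsp and Alpl did not. All 5 summed to 1330 to 2605 in control lines in normoxia and 998 to 3398 in hypoxia. In triCH1 lines the sums were 658 to 890 and 386 to 607, so the line types did not overlap. Of all tested single probe sets, 10.8% in normoxia and 13.2% in hypoxia did not overlap. Col2a1 was the largest part of the sum, with a mean of 882 against 186 for Acan and 158 for Sox9. Of the 3 tested markers, 0 were called in limma, and the markers were not compared singly here. Summed proliferation markers (4 of 4 above 100) reached 29511 in normoxia and 32486 in hypoxia in triCH1 lines, against at most 18494 and 19338 in controls, with overlapping ranges. Smooth muscle markers (5 of 5 above 100) summed to 72902 to 106862 in normoxic and 90768 to 112969 in hypoxic control lines, and to 76712 to 89994 and 90033 to 98296 in triCH1 lines. Of 5 skeletal muscle markers only Acta1 passed 100 (Myod1, Myog, Myf5 and Ckm did not). Their sum was 11976 to 18019 and 15253 to 17009 in control lines and 8001 to 13374 and 10307 to 13293 in triCH1 lines. It did not overlap in hypoxia, where 13.2% of single probe sets did not. The part of these markers in the Igfbp6 and Igfbp7 differences was not tested. In bulk RNA, fewer cells of a type and less RNA per cell cannot be told apart.

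**Figure D3:**
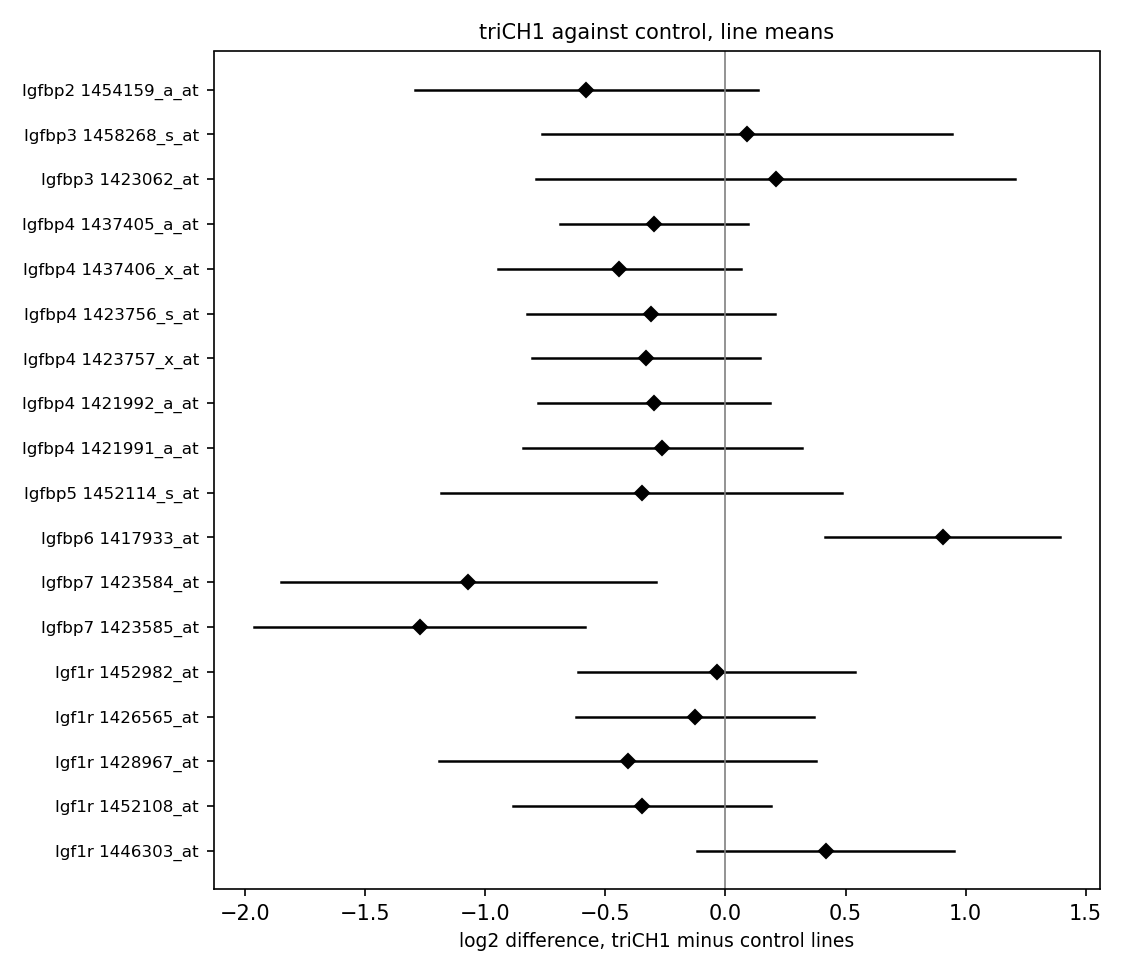
Difference between the line types for the 18 tested probe sets (log2(signal + 20), triCH1 minus control, on the means of each line's arrays, 3 lines per type); diamonds are limma estimates and bars their 95% intervals. Only the bars of Igfbp6 (0.90) and of the Igfbp7 probe sets (-1.07 and -1.27) stay clear of 0, before adjustment for the number of probe sets tested.

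The remaining members showed smaller differences between line types, with intervals that crossed 0 on line means. Igfbp2 was lower in triCH1 lines by a log2 value of -0.56 in normoxia, -0.60 in hypoxia and -0.58 ± 0.31 on line means (adjusted p = 0.590, limma). Its line means were 13758 ± 4784 and 9342 ± 4132 (SD, n = 3 each), with the female control line flox2_1 highest at 18844 and triCH1flox2_1 above the other triCH1 lines. Igfbp4 gave -0.26 in normoxia, -0.34 in hypoxia and -0.30 ± 0.17 on line means (adjusted p = 0.617), and all 6 of its probe sets were lower on average in triCH1 lines, from -0.44 to -0.26. Igfbp3 gave 0.09 ± 0.38 (adjusted p = 0.970), Igfbp5 -0.35 ± 0.37 (0.807) and Igf1r -0.04 ± 0.25 (0.981) on line means. The 5 Igf1r probe sets ran from -0.41 to 0.42, so this gene had no single direction. For Igf1r the interval of its brightest probe set was -0.61 to 0.54, and for Igfbp4 it was -0.69 to 0.09.

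Over the 18 members the median line-type difference was -0.30 on line means, with 14 of 18 values negative, of which 6 were the correlated Igfbp4 probe sets. Over all tested probe sets the median was 0.03 and 55.0% of values were positive. Member probe sets also varied between lines more than a typical probe set. The median SD of log2 line means was 0.40 for them and 0.23 over all tested probe sets, and 18 of 18 lay above that median. These 18 are not independent, with 6 of Igfbp4 and 5 of Igf1r, and the lowest exceeded only 64.8% of all tested probe sets. The SD over 6 lines also includes the difference between line types. For Igfbp7 (1423584_at) it was 0.80 over all lines and 0.18 among control lines. The ratio of highest to lowest line was 4.50 for Igfbp7 (flox1 over triCH1flox2_1), 2.85 for Igfbp6 (triCH1flox2_2 over flox2_1), 2.85 for Igfbp2 (flox2_1 over triCH1flox1) and 1.78 for Igfbp4 (flox1 over triCH1flox1). Within a line, the ratio of hypoxic to normoxic signal of these 4 probe sets stayed between 0.694 and 1.29.

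Between members, log2 values over the 12 arrays gave r = -0.80 for Igfbp2 and Igfbp6 and r = 0.799 for Igfbp5 and Igfbp7. The latter did not hold line by line. Line triCH1flox1 had the highest Igfbp5 mean (173) but less Igfbp7 (14525) than every control line (16336 to 20878). Igfbp5 was also close to the filter, and its low probe set was not used for r. The neighbouring genes Igfbp2 and Igfbp5 gave r = -0.23, and Igfbp6 and Igfbp7 gave r = -0.44. These are descriptions over the same 12 arrays, in which each line appears at both oxygen levels. The genes whose log2 signal followed each member most closely over the 12 arrays were Masp1 (r = 0.951), Osbpl3 (0.944) and App (0.937) for Igfbp2 and Cotl1 (0.961), Srsf6 (0.948) and Nubp1 (0.939) for Igfbp6. For Igfbp7 they were Gpx3 (0.976), Actg2 (0.973) and Mycl (0.967), and for Igf1r Gpc6 (0.919), Ptchd4 (0.913) and Neo1 (0.896). The closest to Igfbp4 was Fgf13 (0.862), to Igfbp3 Evi5l (0.907), to Igfbp5 Mindy1 (0.902) and to the low Igf1 Krt6a (0.936). Such values are the highest of 10059 genes with a tested probe set.

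The rest of the pathway was taken from lists of ligands and receptors, of relatives, partners and proteases of the binding proteins, and of signalling components, each gene by its brightest probe set. Of 9 tested ligands and receptors (12 listed), 0 were called in limma in any of the 7 comparisons. In the mean hypoxia response 2 had an unadjusted p under 0.05, against 11.3% of all tested probe sets. In each comparison of line types 1 did, against 7.56% in normoxia, 7.97% in hypoxia and 9.83% on line means. Ins2 and Insrr were low, with means of 30.2 and 55.2, and Ins1 was not analysed here. Igf2, the other IGF, read 939 ± 492 and 907 ± 184 in control lines and 1236 ± 299 and 1046 ± 266 in triCH1 lines (normoxia and hypoxia, SD, n = 3), with overlapping groups and a line-type difference of 0.34 ± 0.28 (adjusted p = 0.745). Insr, the insulin receptor, gave -0.24 ± 0.24 (0.795), and Igf2r, which clears IGF2, -0.38 ± 0.26 (0.675). The IGFBP3 receptor candidates Lrp1 and Tmem219 gave -0.36 ± 0.33 (0.775) and -0.37 ± 0.17 (0.531). Of the integrins, Itgav, Itga5 and Itgb1 gave -0.10 ± 0.11 (0.825), -0.36 ± 0.28 (0.722) and -0.20 ± 0.12 (0.645).

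Integrin beta 3 (Itgb3, 1455257_at), a subunit of the integrin that takes part in IGF1 signalling, stood apart from these. In normoxia it read 533, 446 and 596 in control lines (flox2_1, flox1, flox2_2) and 151, 188 and 194 in triCH1 lines (triCH1flox2_1, triCH1flox1, triCH1flox2_2). In hypoxia it read 403, 353 and 265 against 26.6, 184 and 101. All 6 triCH1 arrays were below all 6 control arrays, and 1.69% of all tested probe sets were apart in this way in either direction. Itgb3 was also lower in hypoxia in all 6 lines, and 12.4% of all tested probe sets changed in the same direction in all 6. Its mean response was -0.76 ± 0.28 and was not called (adjusted p = 0.290, limma). The difference on line means was -1.61 ± 0.29 and missed the threshold (adjusted p = 0.192, limma); it passed with the random line block (0.0383) and without triCH1flox1 (-1.87, 0.0148), and its adjusted p over the alternatives was 0.0148 to 0.572.

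Of 14 tested relatives, partners and proteases (21 listed), 2 rose in hypoxia in control lines, in triCH1 lines and in the mean over both, and 0 fell. Over all tested probe sets 0.799%, 0.63% and 1.42% rose and 0.0317%, 0.00529% and 0.328% fell. They were the stanniocalcins Stc1 and Stc2, secreted glycoproteins that inhibit PAPP-A, the protease that cuts Igfbp4 and Igfbp5 proteins. Stc2 (1449484_at) read 113, 208 and 120 in normoxic control lines (flox2_1, flox1, flox2_2) and 1569, 2152 and 1741 in hypoxia. Its triCH1 values (triCH1flox2_1, triCH1flox1, triCH1flox2_2) were 220, 87.6 and 110 in normoxia and 1224, 1108 and 803 in hypoxia. Every hypoxic array was above every normoxic array. Of all tested probe sets, 11.6% in control lines and 11.9% in triCH1 lines did not overlap between oxygen levels. The hypoxic control arrays were above the hypoxic triCH1 arrays, a comparison in which 13.2% of all tested probe sets did not overlap. That line-type difference in hypoxia was -0.80 ± 0.30 and was not called (adjusted p = 0.519, limma). The response was 3.50 ± 0.30 in control lines (adjusted p = 1.46e-05), 2.81 ± 0.30 in triCH1 lines (0.00017) and 3.15 ± 0.21 in the mean (5.53e-07, limma). The difference between these 2 responses was -0.69 ± 0.43 and was not called (unadjusted p = 0.129, limma).

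Stc1 (1450448_at) read 247, 148 and 349 in normoxic control lines (flox2_1, flox1, flox2_2) and 853, 784 and 931 in hypoxia. In triCH1 lines (triCH1flox2_1, triCH1flox1, triCH1flox2_2) it read 131, 109 and 81.7 in normoxia and 414, 495 and 311 in hypoxia. It rose in all 6 lines, from lower starting values in the triCH1 lines. Of all tested probe sets, 12.4% changed in the same direction in all 6 lines. The response was 1.78 ± 0.28 in control lines (adjusted p = 0.00371), 1.74 ± 0.28 in triCH1 lines (0.00571) and 1.76 ± 0.20 in the mean (9.62e-05, limma). The call in control lines was lost without flox2_1 (adjusted p = 0.0746), without flox1 (0.0567) and with only the floxed Ep300 lines (0.0523), within a range of 0.000254 to 0.0746. That in triCH1 lines was lost without triCH1flox1 (0.0850), without triCH1flox2_2 (0.0608) and with only the floxed Ep300 lines (0.0529), within a range of 0.000419 to 0.0850. The call in the mean response was kept in all alternatives run, at an adjusted p of at most 0.00268.

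Between line types 0 of these 14 genes were called, and 5 had an unadjusted p under 0.05 in each of the 3 comparisons. Of all tested probe sets, 7.56% in normoxia, 7.97% in hypoxia and 9.83% on line means did. On line means these 5 were Pappa, Plau, Mmp2, Bmp1 and Stc1, all lower in triCH1 lines and named here after their values had been seen. Pappa and Mmp2 encode proteases that cut binding proteins. Pappa (1432591_at) read 1212, 944 and 449 in normoxic control lines (flox2_1, flox1, flox2_2) and 118, 281 and 214 in triCH1 lines (triCH1flox2_1, triCH1flox1, triCH1flox2_2), and in hypoxia 764, 746 and 758 against 218, 632 and 154. The groups did not overlap at either oxygen level, where 10.8% (normoxia) and 13.2% (hypoxia) of all tested probe sets did not. The Pappa difference on line means was -1.66 ± 0.34 (adjusted p = 0.235, limma). It passed with only the floxed Ep300 lines (-2.01, 0.0434), with the random line block (-1.66, 0.0474) and without triCH1flox1 (-2.06, 0.00754), within a range of 0.00754 to 0.720. Mmp2 (1416136_at) averaged 5280 ± 1130 and 5419 ± 1396 in control lines and 2788 ± 677 and 2552 ± 664 in triCH1 lines (normoxia and hypoxia, SD, n = 3), with a difference of -1.0 ± 0.20 (adjusted p = 0.235, limma; 0.0182 to 0.720 over the alternatives, 4 of which called it, leaving out triCH1flox1 among them).

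Plau (1422139_at), the plasminogen activator urokinase, read 830, 719 and 602 in normoxic control lines (flox2_1, flox1, flox2_2) and 106, 416 and 151 in triCH1 lines (triCH1flox2_1, triCH1flox1, triCH1flox2_2). In hypoxia it read 896, 992 and 434 against 164, 390 and 128, so that all 6 triCH1 arrays lay below all 6 control arrays. Of all tested probe sets, 1.69% were apart in this way in either direction. Its difference on line means was -1.77 ± 0.39 (adjusted p = 0.237, limma). It passed with only the floxed Ep300 lines (-2.14, 0.0434), the random line block (0.0316), the floxed gene as a covariate (0.0475) and without triCH1flox1 (-2.25, 0.00754), within a range of 0.00754 to 0.739. Bmp1, a procollagen protease, gave -0.59 ± 0.23 (adjusted p = 0.454; 0.0760 to 0.934 over the alternatives). Stc1 gave -1.04 ± 0.23 (0.237), passing only with the random line block (0.0474; range 0.0474 to 0.720).

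**Figure D4:**
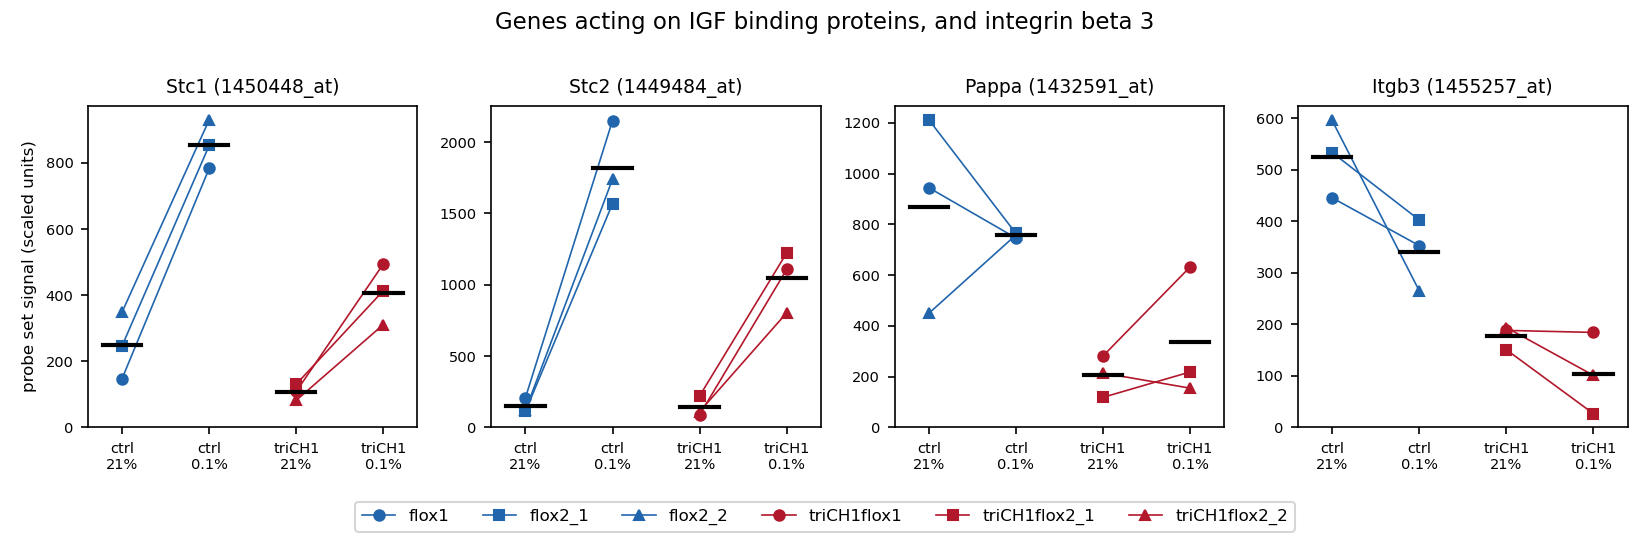
Probe set signal (scaled units, linear axis from 0) of Stc1, Stc2, Pappa and Itgb3 in all 12 arrays; points are single arrays, a line joins the arrays of a cell line, and the black bar is the mean of a group of 3. Stc1 and Stc2 climb in all 6 lines in hypoxia, whereas Pappa and Itgb3 are lower in the triCH1 lines (red) than in the control lines (blue) at both oxygen levels.

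Among 30 tested signalling genes (41 listed), 2 rose and 0 fell in the mean hypoxia response, against 1.42% and 0.328% of all tested probe sets. In each line type alone 1 rose, against 0.799% in control and 0.63% in triCH1 lines. Map2k1 (1416351_at), the kinase MEK1 of the ERK cascade, gave 1.08 ± 0.15 in control lines (adjusted p = 0.00115), 1.09 ± 0.15 in triCH1 lines (0.0016) and 1.08 ± 0.11 in the mean (2.32e-05, limma). Its signal rose from 3464, 3939 and 3392 in control lines (flox2_1, flox1, flox2_2) to 7543, 8053 and 7272. These did not overlap, as was the case for 11.6% of all tested probe sets in control lines. Eif4ebp1 (1434976_x_at), the translation repressor that mTOR phosphorylates, gave a mean response of 0.52 ± 0.10 (adjusted p = 0.0156). It lost that call in 9 of 29 alternatives, with adjusted p from 0.00318 to 0.139; among them were leaving out flox2_1 (0.0555), triCH1flox2_1 (0.0758), flox1 (0.0614) or triCH1flox2_2 (0.139). Between line types 0 of the 30 were called, and 2 had an unadjusted p under 0.05 on line means, against 9.83% of all tested probe sets. Of the 3 listed mRNA-binding regulators of IGF2, 2 were tested and 0 called, with 0 at an unadjusted p under 0.05. Listed genes that were not tested were low or are not analysed here.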

How the data were processed

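Probe set intensities were deposited as signals of the Affymetrix Statistical algorithm, scaled by the authors to a target of 500 on each array, per the labels; the software version is not given in the sources used here. No array was pooled, and 64 control probe sets were left out. Intensities were converted to log2(signal + 20), so folds of dim probe sets are understated. Those averaging 100 or more across the 12 arrays were tested with limma 3.58.1 in R 4.3.3, with a variance trend and Benjamini-Hochberg adjustment over all 18903. One model of the 4 groups (8 residual degrees of freedom) gave 6 comparisons, and the 6 line means (4 residual degrees of freedom) the seventh. The script was tested on simulated data. The number of arrays limits the precision.

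Each gene is named by its brightest probe set. Other probe sets are given beside it for the members only, not for the pathway genes. Pathway genes are named where called, and the listed ligands and receptors are named in any case; Plau, Mmp2, Pappa and Bmp1 were added after their values were seen. The members and lists were chosen with earlier results of these data known. A line's arrays at both oxygen levels are paired by the line names in the labels; the deviations of a pair correlated at -0.02 (flox2_2) to 0.575. Line as a block, other scalings, pseudocounts and filters, the floxed gene, and leaving out lines or arrays were run as alternatives. Array intensities of different probe sets were not compared with each other.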

Additional observations from a re-analysis of the deposited data

How the results depend on the processing

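The count of members called in the 4 comparisons that involve a hypoxia response stayed at 0 in all alternatives run. Between line types it was 0 to 1 in normoxia when lines or arrays were left out in turn, 0 to 2 in hypoxia and 0 to 2 on line means, each increase coming without triCH1flox1 (245, 276 and 499 of 18903 probe sets called over all, against 1, 14 and 0) or its hypoxic array (19). In hypoxia it was also 1 with only the floxed Ep300 lines (43 called over all) and 1 with the floxed gene as a covariate (129). The replicate block with line as a random term (consensus correlation 0.297) gave 2 on line means, Igfbp6 (0.90) and Igfbp7 1423585_at (-1.27), among 127 called over all. The pairing by line changed no other call of a member; in the hypoxia comparisons the block left the count at 0. Why the calls of these settings differ was not tested.

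Direction turned for values that did not pass the threshold. The mean hypoxia response of Igfbp2 was -0.044 after quantile normalization and -0.18 to 0.20 with lines or arrays left out; such ranges were -0.42 to 0.028 for Igfbp3, -0.21 to 0.30 for Igfbp5 and -0.13 to 0.32 for Igfbp7 1423584_at. On line means they were -0.20 to 0.47 for Igfbp3, -0.75 to 0.029 for Igfbp5, -0.34 to 0.14 for Igf1r and -0.60 to 0.027 for Lrp1. With only the floxed Ep300 lines the Igfbp4 difference in normoxia was 0.028 and that of Igf1r on line means 0.13. Igfbp6 and both Igfbp7 probe sets kept their direction in every alternative run, Igfbp6 between 0.69 and 1.10 and Igfbp7 1423584_at between -1.44 and -0.62 on line means. Signals near 100, those of Igfbp3 and Igfbp5 and of the low Igf1, are the least precise.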
